A study of Drosophila melanogaster with 8 samples.

Results

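The genes described here are 8 Drosophila melanogaster genes whose products carry a zona pellucida (ZP) domain and belong to the apical extracellular matrix: dpy, pio, tyn, dyl, qsm, mey, neo and nyo. They were named as a family, and a binding site was assigned to a gene when its summit, the position of highest signal in a peak, lay in the gene body or within 5 kb of it. All 8 were found among 13922 protein-coding genes on the 6 chromosome arms. By this rule they held 44 of the 8693 btl regions, 12 of the 3210 trh regions and 48 of the 10205 regions of btl replicate 3.

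The binding was measured by chromatin immunoprecipitation and sequencing (ChIP-seq) of Ribbon (Rib), a transcription factor tagged with the green fluorescent protein GFP, with an antibody to the tag. The fusion was expressed from a UAS transgene under btl-GAL4 or trh-GAL4, drivers named after breathless and trachealess, in whole embryos of stages 11 to 15 by the sample characteristics and 11 to 16 by the protocol. Immunoprecipitated samples numbered 3 for btl and 2 for trh, and inputs numbered 2 for btl and 1 for trh. The transgene is UAS-GFP in the titles and genotypes but rib-GFP in the protocol and in the names of the lists. The rib-GFP reading was used, and with the other one no value below would measure Rib. The btl and trh lists each come from replicates 1 and 2, and replicate 3 differed from them in library kit and sequencing centre, so replicate and batch cannot be told apart. A control immunoprecipitation from embryos lacking the tagged protein was not analysed here. Each peak has 1 value in each list, the read depth is unknown, and no value has a replicate error. Because chromatin came from whole embryos, the number of cells with the fusion and the occupancy in each cell cannot be told apart.

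ZP-domain proteins polymerise into fibrils in the matrix that covers the outer face of an epithelium. In the fly embryo they line the lumen of the tracheal tubes, attach the epidermis to the cuticle, and shape the denticles, the small actin-based hooks of the epidermis. Rib is a BTB-domain transcription factor needed for the shaping of the tracheal and salivary tubes. The btl driver is active in the trachea, and the trh driver in the trachea and the salivary gland.

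All 8 genes had a summit in the btl list and all 8 had one in replicate 3, while 6 had one in the trh list. The 6 were dpy, pio, tyn, dyl, qsm and nyo, and the same 6 had a summit in all 3 lists. The shortest members, mey and neo at 7.76 and 6.67 kb, had no trh summit. The trh summits numbered 3 each at dpy and nyo, 2 each at pio and dyl, and 1 each at tyn and qsm. By the same rule 60.9% of all protein-coding genes had a btl summit, 29.1% a trh summit, 65.7% a replicate 3 summit and 25.0% a summit in all 3 lists.

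Gene length bears directly on these counts, since a longer window holds more summits. The shortest member, neo, spans 6.67 kb and the longest, dpy, spans 137 kb. Among the 2710 protein-coding genes at least as long as neo, 78.9% had a btl summit, 50.5% a trh summit, 81.7% a replicate 3 summit and 46.8% a summit in all 3 lists. Against genes of such length, 8 of 8 in the btl and replicate 3 lists is near the background. The trh count fell to 3 of 8 (dpy, pio and nyo) at the stricter irreproducible discovery rate (IDR) of 0.05, where the deposited list used 0.1. The share of all protein-coding genes at 0.05 was not computed, so the fall is not read as particular to the members.

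Per length, summits were denser at the members than over all protein-coding gene windows in the btl list and replicate 3, and only slightly so in the trh list. In the btl list the members held 1.20 summits per 10 kb of window, against 0.726 over all gene windows and 0.754 over windows of genes as long as neo or longer. The trh values, from only 12 summits at the members, were 0.328 against 0.275 and 0.293, and the replicate 3 values were 2.16 against 1.45 and 1.54. The density varied among the 8 genes: nyo had 3.02 btl summits per 10 kb, qsm 2.29 and pio 2.25, while neo had 0.600, dpy 0.613 and tyn 0.853. The high value of qsm in replicate 3, 6.22 per 10 kb, came from 19 summits called within only 7 regions. These are descriptions without a test, since the lists hold no replicate values.

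**Figure D1:**
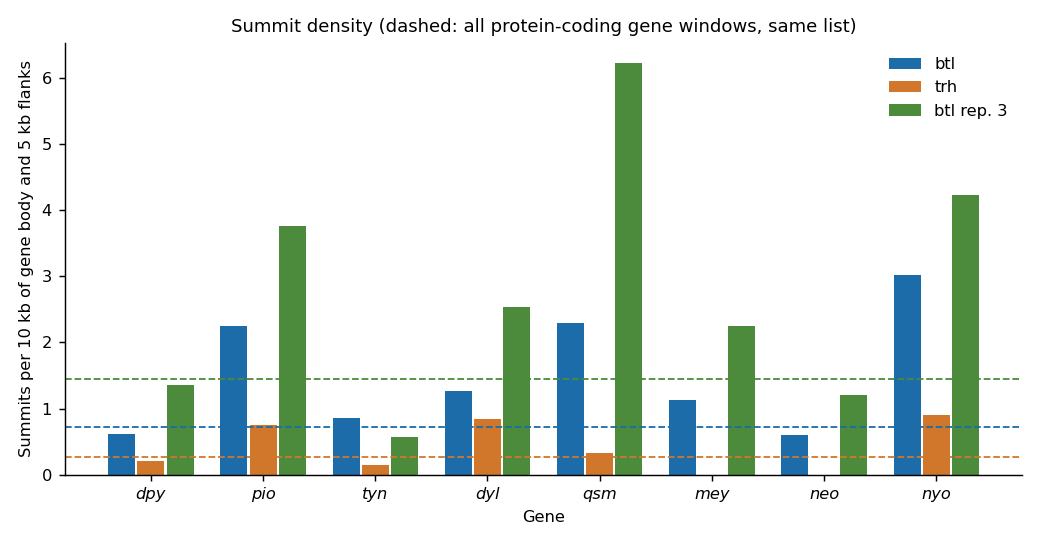
Bars give the number of summits per 10 kb of gene body and 5 kb flanks (y axis) at each gene (x axis), in blue for the btl list, orange for the trh list and green for btl replicate 3, and dashed lines give the same over all protein-coding gene windows. The nyo, qsm and pio bars stand above the dashed line of each list, while dpy and neo lie below it in each list.

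Strength is given as the authors' fold enrichment at the summit, a linear ratio over background, and as its percentile, the share of summits in the same list with a fold at or below it. The folds of different lists are not on one scale, so lists are compared by percentile. The strongest btl summit of each member had a median percentile of 93.5 over the 8 genes, against 60.0 over the 8472 protein-coding genes with a btl summit and 73.5 over those as long as neo or longer. The trh median was 75.9 over the 6 genes with a summit, against 54.3 and 64.2. In replicate 3 it was 84.7, against 79.7 and 86.4, so there the members stood at the level of other long genes. A strongest summit tends to rank higher where a gene holds more summits, and the length limit does not match summit numbers. Over all summits at the members the median percentile was 55.9 for btl, 59.2 for trh and 42.6 for replicate 3. Above percentile 90, which holds 10% of each list, lay 8 of the 44 btl summits (18.2%, in dpy, pio, tyn, qsm and nyo), 2 of the 12 trh summits (16.7%, in dpy and pio) and 5 of the 79 replicate 3 summits (6.33%, in dpy, pio and qsm). All 8 btl and both trh summits lay inside the gene body more than 500 bp from its ends, and of the 5 in replicate 3, 2 lay inside, 2 at an end and 1 in a flank. Ranked by the authors' -log10 q of each summit, 4 btl summits (9.09%), 2 trh and 4 replicate 3 summits (5.06%) lay above percentile 90, so the btl share above that of the list was seen by fold alone. By that ranking the medians of the strongest summits were 89.9 for btl, 60.5 for trh and 81.3 for replicate 3. The medians over other genes were computed by fold only.

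The rankings by fold and by -log10 q diverged in the lists from replicates 1 and 2. By -log10 q, 6 of the 44 btl summits stood more than 20 points higher than by fold and 10 more than 20 points lower, as did 1 and 4 of the 12 trh summits. None of the 79 replicate 3 summits moved that far. Percentiles are by fold unless the other ranking is named, and it is given for described sites where the gap bears on a contrast between lists.

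**Figure D2:**
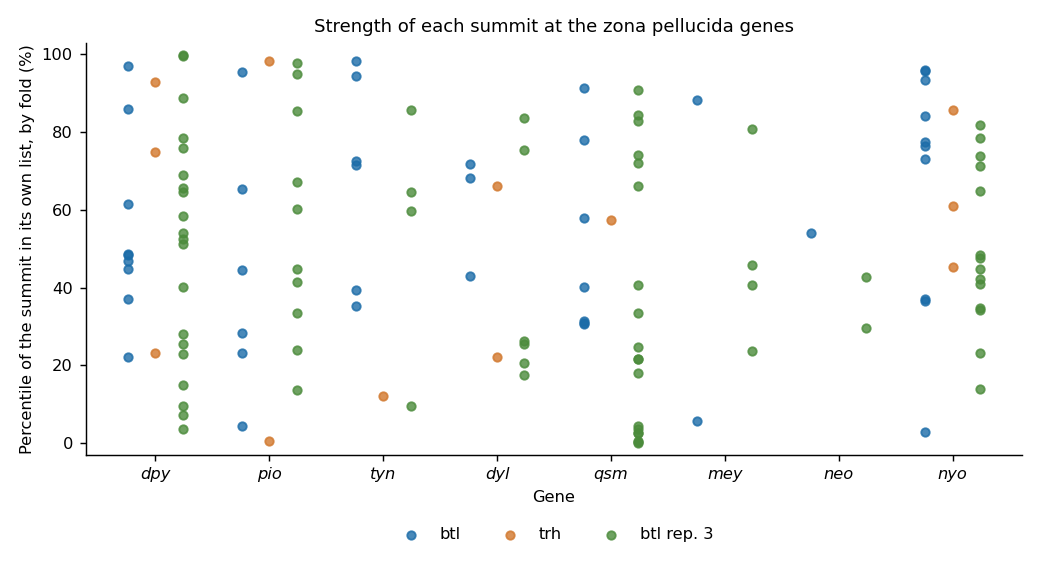
Each point is 1 summit, placed by gene (x axis) and by its percentile in its own list by fold enrichment (y axis, %), with btl, trh and btl replicate 3 in blue, orange and green. The highest btl point is at tyn (98.3), the highest trh point at pio (98.4) and the highest replicate 3 point at dpy (99.8), and mey and neo have no trh point.

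The gene dpy encodes Dumpy, a giant ZP protein that spans the tracheal lumen and anchors epidermal cells to the cuticle. It lies on chromosome 2L from 4477462 to 4614300 of Release 6 (dm6, counted from 1). Since the gene table gives no strand or exons, positions are given from the lower-coordinate or upper-coordinate end, and exons, introns and UTRs were not analysed here. There were 9 btl, 3 trh and 20 replicate 3 summits at dpy. They fell into 2 groups, one from 4475649 to 4478185 around the lower end and one from 4573522 to 4614473, with a stretch of 95.3 kb between them that held no summit in any list.

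The strongest btl summit of dpy was at 4583451, 106 kb from the lower end. Its fold was 6.30, rank 260 of 8693 (percentile 97.0). In the trh list the summit at 4583705 had a fold of 3.14 (percentile 92.8), and in replicate 3 the summit at 4583488 had 8.27 (percentile 99.7). This internal site was high in all 3 lists.

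A second shared site of dpy lay just past its upper end and ranked differently between the lists. The btl summit at 4614473, 173 bp past the end, had a fold of 2.26 (percentile 22.2). The trh summit at 4614441 had 1.85 (percentile 23.3), and the replicate 3 summit at 4614470 had 8.79, rank 35 of 17149 (percentile 99.8). By fold the site was low in both lists from replicates 1 and 2 and near the top of replicate 3. By -log10 q it was at percentile 78.4 in btl, 76.5 in trh and 99.2 in replicate 3, so the low rank holds by fold alone. The nearest other protein-coding gene, BG642163, lay 26823 bp from the btl summit.

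The remaining dpy summits were weaker or found in fewer lists. At 4574659 the btl fold was 4.44 (percentile 85.9), and replicate 3 had a summit at 4574695 with 2.80 (percentile 64.6). At 4595039 the btl fold was 2.56 (percentile 37.1, or 70.8 by -log10 q), and replicate 3 had 4.29 at 4594886 (percentile 88.7). Neither site was in the trh list. A trh summit at 4478185, 723 bp inside the lower end, had a fold of 2.53 (percentile 74.8, or 44.9 by -log10 q), and its region was the only one of the 12 trh regions at these genes that overlapped no btl and no replicate 3 region. The btl summits at 4475649, inside ine, and at 4477070, 48 bp from ine, lay nearer to that neighbouring transporter gene than to dpy.

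The gene pio encodes Piopio, a ZP protein of the tracheal lumen that acts with Dumpy. It lies on chromosome 2R from 24581245 to 24597862 and had 6 btl, 2 trh and 10 replicate 3 summits. Its strongest btl and trh summits fell on one internal site. The btl fold at 24586853 was 5.87 (percentile 95.6) and the trh fold at 24586860 was 3.83, rank 52 of 3210 (percentile 98.4), the highest trh percentile at any of the 8 genes. In replicate 3 the summit at 24586844 had a fold of 3.95 (percentile 85.4). The 3 summits lay within 16 bp of each other.

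At the lower end of pio replicate 3 ranked highest by fold. The btl summit at 24581197, 48 bp outside the gene, had a fold of 1.75 (percentile 4.33), and the trh summit at 24581292, 47 bp inside, had 1.42 (percentile 0.561). The replicate 3 summit at 24581145 had a fold of 6.26 (percentile 97.8). By -log10 q the percentiles were 43.4 for btl, 1.53 for trh and 96.4 for replicate 3, so btl stood in the middle of its list by that measure. Both pio sites were in the highest-confidence list. A further replicate 3 summit at 24599866 had a fold of 5.29 (percentile 94.8), but it lay 45 bp from ATPsynF, a mitochondrial ATP synthase subunit gene, and within 500 bp of the ends of ATPsynF and CG3548.

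The gene tyn encodes Trynity, a ZP protein of the embryonic cuticle. It lies on chromosome X from 140318 to 200663 and had 6 btl summits, 1 trh summit and 4 replicate 3 summits, all inside the gene and none within 500 bp of its ends. The btl summit at 188937 had a fold of 7.02, rank 148 of 8693 (percentile 98.3), the highest btl fold at any of the 8 genes. Its replicate 3 counterpart at 188946 had 3.98 (percentile 85.7), and the trh list had no region there. The btl summit at 142152 had a fold of 5.62 (percentile 94.5), lay inside the non-coding gene lncRNA:CR45473 as well, and met a replicate 3 summit at 142148 with 2.80 (percentile 64.6).

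The single site of tyn with a trh summit was its weakest in the btl list by fold. The btl fold at 176066 was 2.53 (percentile 35.2), the trh fold at 176030 was 1.70 (percentile 12.0) and the replicate 3 fold at 176040 was 2.64 (percentile 59.7). The btl percentile was 55.4 by -log10 q, above that of the summits at 180703, 186238 and 187793, and the trh percentile was 12.9. The strongest tyn sites under btl were therefore not those called under trh. The btl summits at 186238 and 187793, with folds of 2.61 and 3.58, overlapped no region of either other list.

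**Figure D3:**
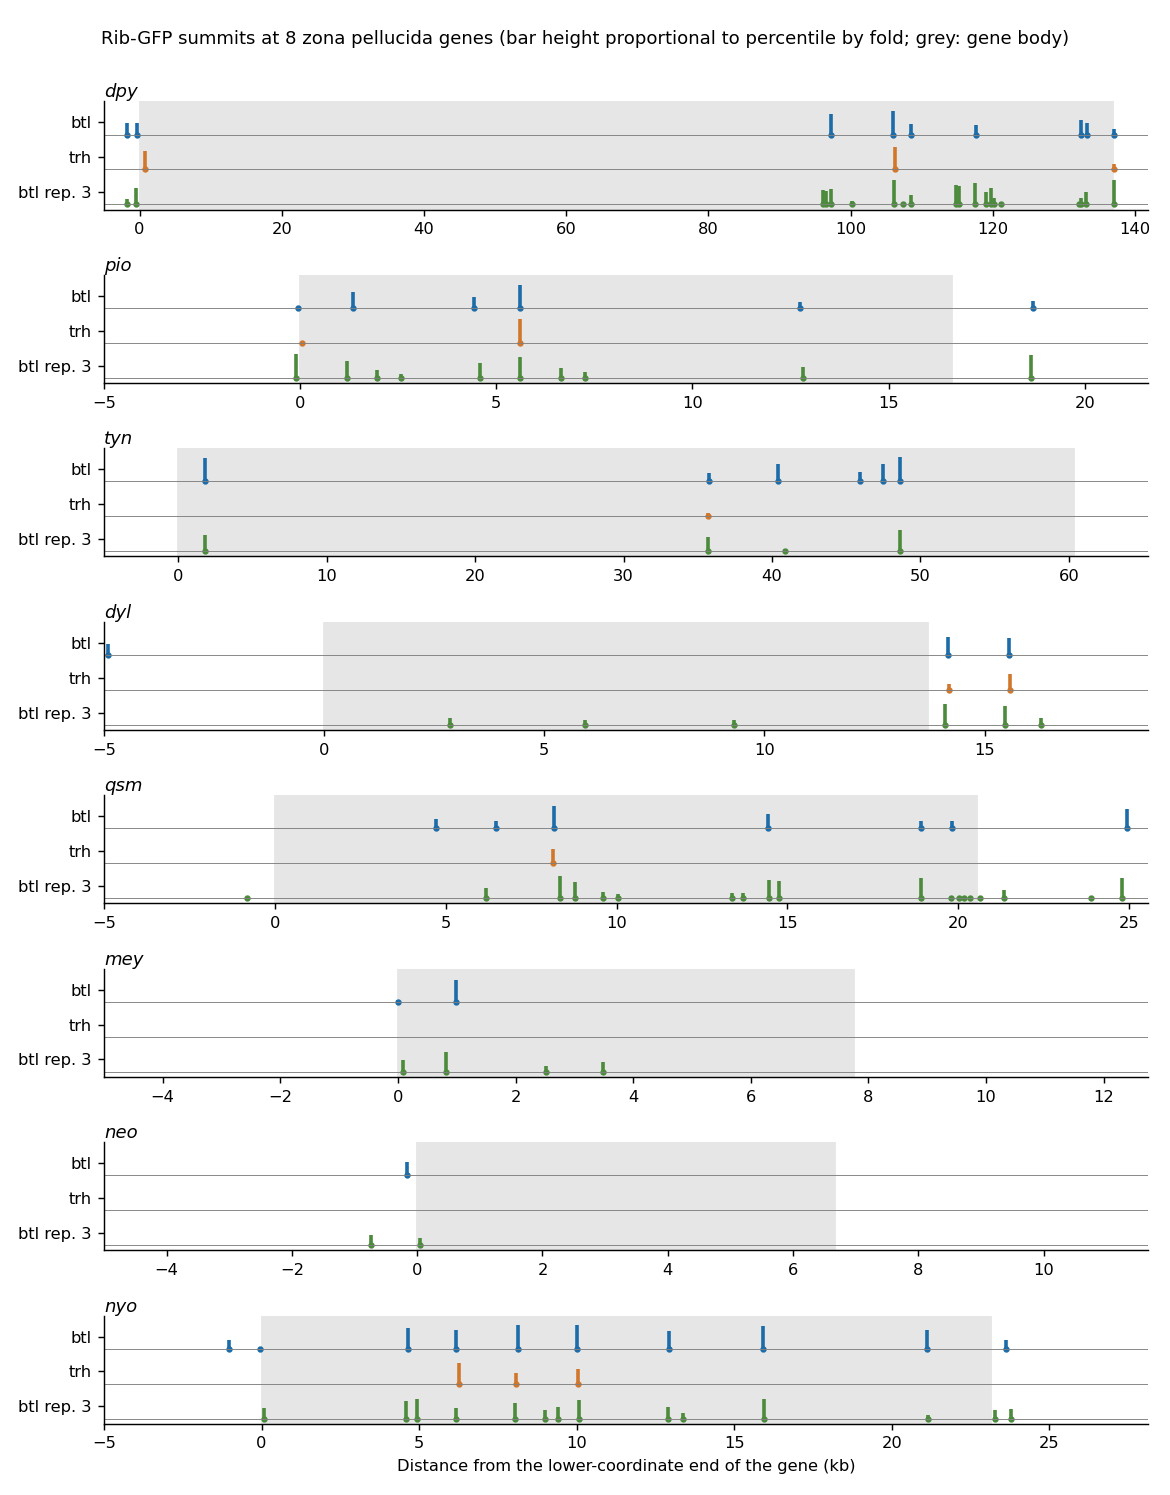
Each panel shows 1 gene, with distance from its lower-coordinate end in kb on the x axis, the gene body in grey, and 1 row each for btl, trh and btl replicate 3, where a dot marks a summit and the height of its bar is proportional to its percentile by fold, up to 99.8 for the tallest, at the upper end of dpy in replicate 3. At dpy a stretch of 95.3 kb has no summit, at tyn the bars lie inside the gene, at dyl those of the btl and trh lists lie outside it, and at nyo 3 neighbouring internal sites carry bars in all 3 rows.

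Dusky-like, the product of dyl, is needed for the matrix and chitin deposition of epidermal hairs and bristles. The gene lies on chromosome 3L from 4294004 to 4307718. None of its 3 btl and 2 trh summits lay inside its body. Past the upper end, at 463 bp, the btl summit 4308181 had a fold of 3.56 (percentile 71.9), the trh summit 4308205 had 1.84 (percentile 22.1, or 4.89 by -log10 q) and the replicate 3 summit 4308103 had 3.80 (percentile 83.6). A second site 1841 bp past that end had a btl fold of 3.40 at 4309559 (percentile 68.3), a trh fold of 2.38 at 4309572 (percentile 66.2) and a replicate 3 fold of 3.29 at 4309475 (percentile 75.5). Both sites were in the highest-confidence list, and no other protein-coding gene was nearer than Claspin, at 3924 bp from the second. Inside the gene, replicate 3 alone had 3 summits, with percentiles from 17.5 to 26.3.

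The btl summit of dyl at 4289091 lay inside Hexo1, 4913 bp from dyl, and was the closest of all to the edge of the 5 kb rule. Its fold was 2.70 (percentile 43.0). Just beyond the edge were a replicate 3 summit 5185 bp from dyl with a fold of 1.80 (percentile 16.1) and a btl summit 5356 bp from neo with 2.38 (percentile 28.2).

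The genes mey, neo and nyo (morpheyus, neyo and nyobe) encode ZP proteins that occupy distinct zones of the growing denticle. The neighbours mey and nyo lie 36.0 kb apart on chromosome 3R with no protein-coding gene between them, and they differed in their sites. The shorter mey (31499235 to 31506992) had 2 btl summits, no trh summit and 4 replicate 3 summits. Its stronger btl summit at 31500220, 985 bp inside the lower end, had a fold of 4.69 (percentile 88.3), and replicate 3 had 3.59 at 31500057 (percentile 80.7). At the lower end itself the btl fold was 1.80 at 31499229 (percentile 5.58) and the replicate 3 fold was 2.29 at 31499318 (percentile 45.9).

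The gene nyo (31543032 to 31566165) had the most btl summits of the 8, with 10, and 3 trh and 14 replicate 3 summits. Of the btl summits, 3 were above percentile 90 and 7 above percentile 70, all 7 inside the gene. The highest were at 31551157 with a fold of 6.01 (percentile 96.0), at 31553045 with 5.91 (percentile 95.7) and at 31558954 with 5.45 (percentile 93.5). No replicate 3 summit of nyo reached percentile 90, the highest being 81.7 at 31547960 with a fold of 3.66.

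All 3 trh summits of nyo fell on btl sites in a row. At 31549292 the trh fold was 2.82 (percentile 85.6), beside a btl fold of 3.86 at 31549215 (percentile 77.6). At 31551118 the trh fold was 2.10 (percentile 45.2) and at 31553087 it was 2.30 (percentile 60.9), beside the highest 2 btl sites of the gene by fold. Ranked by -log10 q, the highest btl site was instead 31558954 (percentile 93.3), which overlapped no trh region. The btl summits at 31549215, 31551157 and 31553045 were then at percentiles 48.5, 87.8 and 86.8. By -log10 q the 3 sites, in order of position, were at ranks 1132, 1466 and 2763 of 3210 in the trh list, so the order of the last pair depends on the measure, while the site at 31549292 came first by both. At the lower end of nyo, the btl summit at 31542980 had a fold of 1.67 (percentile 2.76) and the replicate 3 summit at 31543114 had 2.26 (percentile 44.7).

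The gene neo (chromosome 3R, 29819131 to 29825800) had the fewest summits, with 1 in the btl list and 2 in replicate 3. The btl summit at 29818963, 168 bp outside the lower end, had a fold of 2.97 (percentile 54.0). The replicate 3 summits at 29818395 and 29819183 had folds of 2.22 and 2.00 (percentiles 42.6 and 29.7) and belonged to 1 region. The summit at 29818395 lay nearer to CG7829, at 631 bp, than to neo, at 736 bp. Summits assigned to neo thus lay at or near the lower end of the gene, with no other site.

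The gene qsm encodes Quasimodo, a ZP protein known from the light response of the circadian clock. It lies on chromosome 2R from 20563034 to 20583591 and had 7 btl summits, 1 trh summit and 19 replicate 3 summits. The lists shared 1 internal site, with a btl fold of 5.10 at 20571217 (percentile 91.4), a trh fold of 2.25 at 20571187 (percentile 57.5) and a replicate 3 fold of 4.55 at 20571370 (percentile 90.8). It was the strongest site of qsm in each list by either measure, but by -log10 q its trh percentile was 14.7. The next btl summit by fold, 3.89 at 20587971 (percentile 78.0), lay inside the neighbouring gene HnRNP-K.

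Most btl summits at the gene ends ranked higher in replicate 3. A btl summit with a replicate 3 summit within 200 bp is called matched here. In the whole btl list of 8693 summits, 2033 matched summits lay within 500 bp of any protein-coding gene end and 4212 lay elsewhere. Of the 44 btl summits at the members, 36 were matched, 7 of them within 500 bp of an end of the member. All 7 had a higher percentile in replicate 3 than in the btl list, with medians of 68.9 and 22.2, by 4.50 to 93.5 points. The eighth btl summit at a gene end, that of neo, went the other way and was left out by the 200 bp limit. Its percentile was 54.0 in the btl list, and that of the nearest replicate 3 summit, 220 bp away in an overlapping region, was 29.7 (72.2 and 31.5 by -log10 q). Of the other 29 matched summits, 12 were higher in replicate 3 and 17 were lower, with medians of 67.2 in replicate 3 and 73.0 in the btl list. By -log10 q, 7 of the 7 and 10 of the 29 were higher in replicate 3. The whole btl list showed the same lean, with 75.0% of 2033 matched gene-end summits and 47.4% of 4212 others higher in replicate 3. The lean is therefore not called particular to these genes. The definitions differ, since the list counts ends of any protein-coding gene and the members only their own. The summits at 24599935 (pio) and 20587971 (qsm), among the 29, lay within 500 bp of another gene's end. Both were higher in replicate 3 by fold. Replicate 3 differs in kit, sequencing centre and the absence of an IDR filter, which cannot be told apart here.

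**Figure D4:**
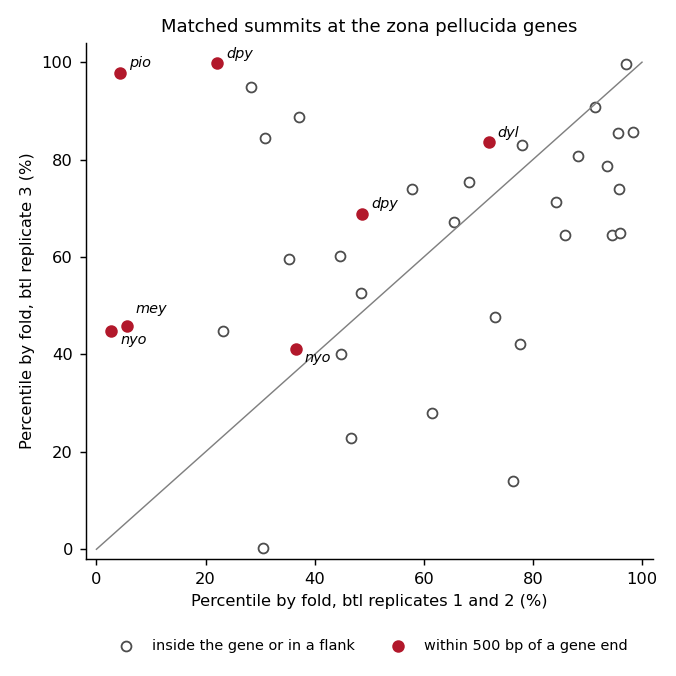
Each point is a btl summit at one of the 8 genes with a replicate 3 summit within 200 bp, placed by its percentile by fold in the btl list (x axis, %) and in replicate 3 (y axis, %), and the line marks equal percentiles. The 7 filled points, within 500 bp of a gene end and named by gene, lie above the line, and the 29 open points lie on both sides of it.

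Most summits of the members lay away from the gene ends. A summit within 500 bp of an end was found at 6 of the 8 genes in the btl list (26.7% of all protein-coding genes, 39.9% of those as long as neo or longer), at 3 in the trh list (8.32% and 16.8%) and at 7 in replicate 3 (36.1% and 57.2%). The 3 in the trh list were dpy, pio and dyl. Of the 44 btl summits, 30 lay inside a member away from its ends, 8 at an end and 6 in a flank. The share lying inside was not computed over other genes. The shares at an end were 18.2% for btl, 25.0% for trh and 12.7% for replicate 3. Over all protein-coding genes they were 21.4%, 18.5% and 17.5%, and over those as long as neo or longer 15.0%, 15.8% and 12.2%. The btl and replicate 3 shares thus lay below the first background and above the second.

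Overlap between the lists at the members was near or above that of the whole lists. Of the 44 btl regions at the members, 40 overlapped a replicate 3 region by at least 1 bp (90.9%, Wilson 95% interval 78.8 to 96.4%), against 80.4% of the whole btl list. A trh region was overlapped by 11 of them (25.0%, interval 14.6 to 39.4%), against 25.2% of the list. Of the 12 trh regions, 11 overlapped a btl region (91.7%, interval 64.6 to 98.5%), against 75.2%, and 11 overlapped a replicate 3 region, against 80.5%. Of the 48 replicate 3 regions, 34 overlapped a btl region (70.8%, interval 56.8 to 81.8%), against 62.3%, and 11 a trh region (22.9%, interval 13.3 to 36.5%), against 20.7%. Each of these list-wide shares lay inside the interval of the members' share. A reciprocal overlap of 50% lowered the first 4 of the members' shares to 56.8%, 11.4%, 41.7% and 25.0%. The list-wide shares under that rule were not computed, so these values cannot be set against the list-wide shares above. The intervals cover counting error only and treat regions of the same gene as independent, so they do not show that the shares are equal.

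The highest-confidence list, which holds positions only, had a region at the same 6 genes, against 21.3% of all protein-coding genes and 38.8% of those as long as neo or longer. There were 3 regions at nyo, 2 each at dpy, pio and dyl, and 1 each at tyn and qsm. All 11 were places where the 3 lists overlapped.

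Other ZP-domain genes were counted by the same window. Of the 6 examined (m, dy, nompA, pot, cyr and zye), which span 8.34 to 15.2 kb, 5 had a btl summit, 1 a trh summit and 4 a replicate 3 summit, and pot alone had one in all 3 lists. Among genes as long as neo or longer, those shares were 78.9%, 50.5%, 81.7% and 46.8%. Per length, the 6 genes held 0.594 btl, 0.170 trh and 1.02 replicate 3 summits per 10 kb of window, against 1.20, 0.328 and 2.16 at the 8 members, without a test of the difference. The gene pot encodes Papillote, which anchors the epidermis to the cuticle. Its highest fold was 3.34 under btl (percentile 66.6), 2.16 under trh (percentile 50.3) and 5.91 in replicate 3 (percentile 96.9). These were at different positions, 11920837, 11917378 and 11915282 in that order. The btl summit counted at dy, described after its values were seen, lay in the adjoining m.

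Both partners examined, Np and ovo, had summits in all 3 lists (25.0% of all protein-coding genes, 46.8% of those as long as neo or longer). They were chosen with earlier results known. Np encodes Notopleural, a membrane protease that cleaves Piopio, and had 3 btl, 3 trh and 14 replicate 3 summits, with highest percentiles of 89.8, 90.8 and 98.6. The btl and trh values were at 8991358 and 8991367, and the replicate 3 value was at another site, 9005622. The regulator ovo, whose Shavenbaby form drives the expression of several denticle ZP genes, had 8 btl, 2 trh and 11 replicate 3 summits. Its highest fold was 8.26 under btl, rank 40 of 8693 (percentile 99.6), 3.19 under trh (percentile 93.2) and 5.32 in replicate 3 (rank 856 of 17149). These were different sites, at 5053102, 5061350 and 5047201 in that order.

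The genes most like tyn, the member with the highest btl fold, were found by the percentiles of the strongest summit in the 3 lists, among 3483 protein-coding genes with a summit in each. For tyn these were 98.3 for btl, 12.0 for trh and 85.7 for replicate 3. The nearest was nkd, a Wingless pathway inhibitor, with 98.4, 16.2 and 87.9 in that order, at a Euclidean distance of 4.73 points. Next were MSAmiP, at 5.53, and the cuticle protein gene Cpr35B, at 7.76.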

How the data were processed

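Peak lists of Rib-GFP ChIP-seq were analysed, 3 with summits and 1 of positions only. Per the submitters' processing notes, the build was dm6 and the tools included Bowtie2, SAMtools, Picard, MACS2 2.2.4 and bedtools, with no role or order given. The lists have no header, so columns were read by the narrowPeak layout. The authors' deposited ratio column was taken as fold enrichment at the summit, the deposited -log10 column used as the q-value of each peak, and the deposited score as a capped scale of the IDR (btl and trh lists, filtered at 0.1 per the labels) or as 10 times -log10 q (replicate 3). Replicates 1 and 2 were combined by the authors. Read depth is unknown.

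From these, summits were assigned to genes of the RefSeq Release 6 table (17872 genes; no strand or exons) by a 5 kb window, with ranks and percentiles within each list. Python 3.11.15, pandas 2.3.3 and scipy 1.17.1 were used. The 6 replicate 3 lines off the arms were left out. Window counts and overlaps were tested on simulated peaks. No test was run, since the lists hold no replicate values. Members and gene lists were chosen with earlier results of these data known. All 8 members were described, and of the other listed ZP genes and partners those in all 3 lists, the rest being given as counts except dy. Also named were neighbours where nearest to a named summit, and the 3 genes most like the member of highest btl fold. The planned promoter and motif description was not made, as no sequence was used here.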

Additional observations from a re-analysis of the deposited data

How the results depend on the processing

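No paired analysis was possible because each list holds 1 value a peak and replicates 1 and 2 were combined before deposit, and for the same reason neither could be left out. The count of members with a summit in all 3 lists was 6 under windows of 2 and 10 kb and without btl replicate 3, 5 with the gene body alone or the upper 50% by fold, and 3 at an IDR of 0.05 with a -log10 q of at least 10 in replicate 3. The stricter threshold also left 3 members and 6 summits in the trh list and 31 summits in replicate 3. Shares over all protein-coding genes were not computed at these settings. The upper 50% by fold left 23 btl, 7 trh and 34 replicate 3 summits, and 1 summit a region left 48 in replicate 3. A reciprocal overlap of 50% lowered the shares of regions shared, to 56.8% for btl in replicate 3, 11.4% for btl in trh, 41.7% for trh in btl, 25.0% for trh in replicate 3, 50.0% for replicate 3 in btl and 6.25% for replicate 3 in trh. The shares of the whole lists under that rule were not computed. Ranked by -log10 q, the median percentile of the strongest summit was 89.9 for btl, 60.5 for trh and 81.3 for replicate 3, with no values over other genes computed by that ranking. For single members that ranking changed the percentile of the strongest summit by differing amounts. The change was largest for the trh summits of qsm (57.5 to 14.7) and nyo (85.6 to 64.8) and the btl summit of neo (54.0 to 72.2). Summits at a member's end numbered 5 in the btl list within 250 bp and 18 in replicate 3 within 1000 bp. The other 63 values computed for these results stayed within 1.5 times or inside the counting interval of the value in the report. Peak lists show no depth, so a gene without a summit, such as neo or mey in the trh list, may have been below the detection limit of that list.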

Other observations

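Genes of other kinds share the windows of the ZP genes, and qsm has the most: 7 microRNA genes lie within 5 kb of its upper end on chromosome 2R. A replicate 3 region from 20580881 to 20584554 covered the end of qsm and mir-310, mir-311, mir-312 and mir-313, microRNA genes that begin 161 bp past that end. Its strongest summit, at 20581943 inside qsm, had a fold of 3.86 (percentile 84.4), while the summit nearest to a microRNA gene, at 20583682 and 70 bp from mir-310, had 1.60 (percentile 4.32). The summit on the other side of the cluster, at 20584374 and 114 bp from mir-313, had 2.06 (percentile 33.4). A btl region from 20582505 to 20583834 reached into mir-310 with a fold of 2.43 at its summit (percentile 30.5), and no trh region lay there. Binding at the end of qsm and at these microRNA genes cannot be told apart at this width of region.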
